A study of Homo sapiens with 4 samples.

Results

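The genes described here are the 41 genes of the cell cycle engine and the RB-E2F axis, out of 20033 protein-coding genes in the RefSeq table of GRCh38.p14. They were taken from a list of names and not from measured values, and all 41 were found. The list holds 7 cyclins, 5 kinases that cyclins activate, 3 CIP/KIP and 4 INK4 inhibitors, 3 pocket proteins, 3 activator and 5 repressor E2Fs, MDM2, 2 CDC25 phosphatases and 8 mitotic and proliferation genes. Chromatin accessibility at these genes was measured by ATAC-seq, in which a transposase cuts open DNA, in LNCaP cells (2 libraries) and in enzalutamide-resistant LNCaP cells (2 libraries). LNCaP is an androgen-sensitive human prostate cancer line, labelled wild type, and enzalutamide is a drug that blocks the androgen receptor. The resistant cells carry the genotype label of resistance cells and were selected from LNCaP in stepwise rising enzalutamide. They are also labelled as treated with the drug and LNCaP carries no treatment label, so the drug and the selected state cannot be told apart. To derive them, LNCaP was first adapted to charcoal-stripped, and so androgen-poor, serum. The labels give RPMI-1640 with fetal bovine serum for both, so a lasting effect of the stripped serum cannot be told apart from resistance either. The study compares ATAC-seq of LNCaP with that of its most resistant subline, LN-35, and also reports accessible peaks that differ in each of its resistant lines. The labels name no subline. They do not say whether the resistant cells are 1 clone or whether the replicates were separate cultures.

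Cyclins bind cyclin-dependent kinases and switch them on, and CIP/KIP and INK4 proteins hold these kinases back. D-type cyclins with CDK4 or CDK6 phosphorylate RB1 and its relatives RBL1 and RBL2, the pocket proteins, which otherwise bind E2F transcription factors and keep their target genes silent. Freed activator E2Fs turn on genes of DNA synthesis, while genes of mitosis are switched on later through FOXM1 and the CHR and CCAAT elements of their promoters. In prostate cancer, the androgen receptor drives proliferation in part through the D-type cyclins and this axis, and loss of RB1 function is a known feature of the neuroendocrine form of the disease.

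The deposited lists hold 1 position and 1 score for each accessible site, the summit of a peak. They hold no reads, so depth is unknown. The LNCaP libraries had 117245 and 107344 summits, and the resistant libraries 70866 and 45618. Because scores are not comparable between lists, each summit was given its percentile, the share of the summits of its own library with an equal or lower score. A gene's value is the percentile of its strongest summit within 3 kb of either annotated end, or 0 where there was none, and summits inside the gene but over 3 kb from both ends were taken separately. Values are given in the order LNCaP replicate 1, LNCaP replicate 2, resistant replicate 1, resistant replicate 2. A gene is called higher or lower where both resistant libraries lay above or below both LNCaP libraries. An exact permutation test of 2 values against 2 cannot give a two-sided p below 0.333, so no test was made and these calls are descriptions.

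Of the markers of luminal prostate cells, all 10 had a summit near an end in all 4 libraries. One of them, KLK3, which encodes prostate-specific antigen, stood at 4.79 and 3.46 in LNCaP and at 82.7 and 60.6 in the resistant libraries. The leukocyte gene PTPRC had no summit in any library, but 5 of 6 markers of leukocytes, endothelium and fibroblasts had one in all 4 libraries, so a summit near an end does not show that a gene is used.

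The cell cycle genes were accessible in both cell types, and 25 of the 41 did not separate them near a gene end (8086 of 16893 protein-coding genes did not). All 41 genes had a summit near an end in at least 1 library (16893 of 20033 protein-coding genes did). In all 4 libraries, 40 had one (13661 of 20033 did). Their median percentile was 90.6, 90.5, 90.9 and 85.5, against 82.0, 80.3, 83.5 and 76.7 for all protein-coding genes with such a summit. In the resistant libraries, 4 genes were higher (9.76%, against 23.8% of protein-coding genes), 12 were lower (29.3%, against 28.4%) and 25 overlapped. The 4 were CDK6, CDKN2A, E2F1 and CDKN2B. The 12 were CCND1, E2F5, RBL1, CCNB2, CDC25A, CDC25C, MDM2, CCND3, TOP2A, E2F4, CDK4 and CDKN2C. The median change was -1.46 percentile points, against -0.44 over all protein-coding genes, whose medians in the 4 libraries themselves ranged from 76.7 to 83.5. The sign of this median turned with 1 kb in place of 3 kb, to 0.42, and at the gene start alone, to 0.39. A change of at least 10 points was seen in 2 of the higher genes, CDK6 and CDKN2A, and in 2 of the lower ones, CCND1 and E2F5. In bulk cultures, fewer cells with an open site and less cutting per cell cannot be told apart.

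These counts depended on the length of the lists. When each library was cut to its 45618 strongest summits, 22 of the 41 genes were higher and 1 was lower, while 61.6% and 8.71% of protein-coding genes were. There RBL1, E2F4, E2F5, MDM2, CDC25A, CCND3, CDK4 and CDC25C turned from lower to a positive change. E2F1, CDKN2B and CCNB2 kept their call in the 12 alternatives that recompute each gene, though none of them differed by 10 points in the main computation. Most of these alternatives could not change the calls. Leaving out a library cannot undo such a call. The limits of 1 kb and 5 kb, the start, the whole gene and genes with a summit in all 4 libraries returned the same values. Only equal numbers of summits, a score of at least 10 and ranks among genes could have differed. Taken within replicate numbers, which the labels give as batches, CCNA2, RBL2, E2F8 and PLK1 were lower in both pairs and CDKN1A was higher, and these 5 are among the 25 that overlap otherwise.

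**Figure D1:**
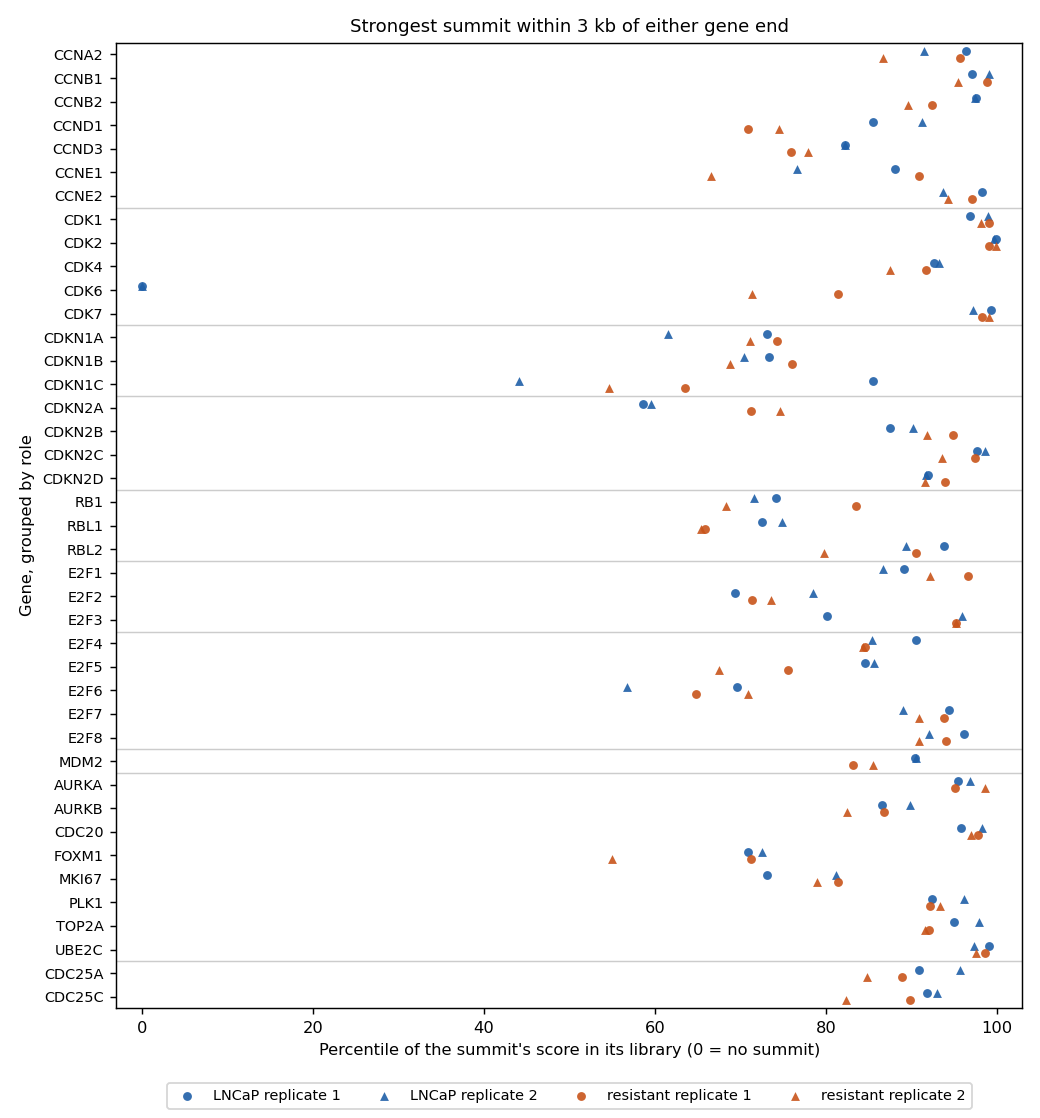
Percentile of the strongest summit within 3 kb of either end of each of the 41 genes (horizontal axis, 0 where there was none), by gene and role (vertical axis). Each symbol is 1 library, with LNCaP in blue and resistant in orange. Most genes lie between 60 and 100 with the cell types intermixed, and CDK6 stands at 0 in both LNCaP libraries.

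**Figure D2:**
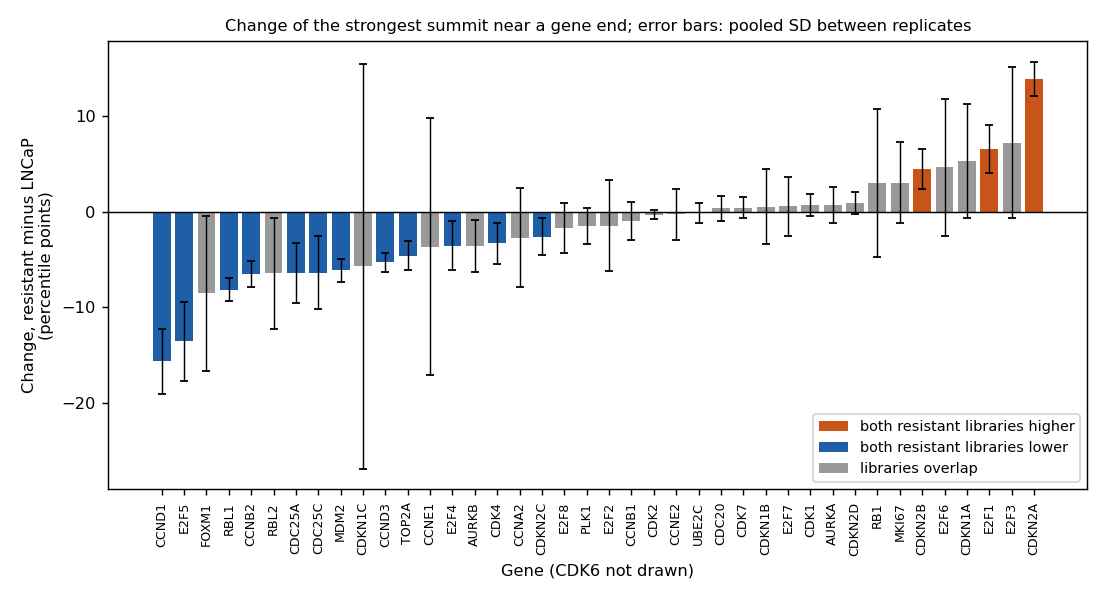
Mean percentile of the resistant libraries minus that of the LNCaP libraries for 40 of the 41 genes (bars), with the pooled SD between replicates (error bars, 2 libraries in each cell type). CDK6, with a change of 76.4 points, is not drawn. Coloured bars are genes whose libraries did not overlap, from CCND1 at -15.7 to CDKN2A at 13.9 points.

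Among the cyclins, 3 of 7 were lower near an end (28.4% of protein-coding genes were) and none was higher (23.8%), with a median change of -3.65 points. CCND1 encodes cyclin D1, the partner of CDK4 and CDK6 in early G1, and lies at chr11:69641156-69654474 (hg38). Its strongest summit near an end stood at 85.6, 91.2, 70.9 and 74.6. Both resistant libraries were lower, a change of -15.7 points with a pooled SD of 3.38 and the largest fall in rank of the 41 genes. The reference table of promoters has no entry for CCND1. The change lay at the higher-coordinate end, where a summit 335 to 383 bp outside the gene stood at 85.6, 91.2, 68.2 and 74.6. At the lower-coordinate end, the strongest summit overlapped between the cell types, at 69.9, 72.8, 70.9 and 63.7, and lay about 2 kb outside the gene. Another site, within 11 bp of the lower-coordinate end itself, stood at 48.4, 71.6, 49.3 and 42.9. Inside CCND1, the strongest summit stood at 69.6, 56.5, 21.6 and 18.5, which again placed both resistant libraries lower. With equal numbers of summits, CCND1 near its ends overlapped between the cell types, with a change of -6.46.

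CCND3 encodes cyclin D3, and its ends went opposite ways. Within 3 kb of its start the strongest summit stood at 67.2, 44.3, 76.0 and 77.9, higher in both resistant libraries by 21.2 points with a pooled SD of 11.5. Near its other end it stood at 82.2, 82.3, 71.1 and 32.7, lower in both. Since the LNCaP value came from the 3′ end, CCND3 was counted as lower, at 82.2, 82.3, 76.0 and 77.9. The start-side summits lay 4 to 279 bp from an annotated end of TAF8, the neighbouring gene, so the site cannot be given to CCND3 alone. A resistant-specific site 1124 and 1315 bp inside the start stood at 44.6 and 42.4, with no LNCaP summit there.

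CCNB2, one of the cyclin B genes that pair with CDK1 at mitosis, had a single summit near an end in each library, just upstream of its start. It stood at 97.6, 97.4, 92.4 and 89.7, lower in both resistant libraries, a change of -6.48 points with a pooled SD of 1.36. With equal numbers of summits it was the 1 gene that stayed lower, at 93.7, 93.9, 88.1 and 89.7. The other cyclins overlapped. CCNA2 (cyclin A2, of S phase and G2) ranged from 86.6 to 96.4, CCNB1 (cyclin B1) from 95.4 to 99.1, and the G1/S cyclins CCNE1 from 66.6 to 90.9 and CCNE2 from 93.7 to 98.3. The CCNE2 summit lay 54 to 59 bp from an end of NDUFAF6.

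To show what the accessible DNA of a cyclin gene and of its kinase holds, the 250 bases upstream of the starts of CCNB2 and CDK1 are given from RefSeq (GRCh38.p14), at chr15:59104896-59105145 on the plus strand and chr10:60778081-60778330 on the plus strand. Capitals mark matches, on either strand, to the E2F core (TTGGCGC, or the same with any other pair of C and G after TT), to the CHR core (which reads TTTGAA), to the CCAAT box, and to the GC box (which reads GGGCGG).
CCNB2: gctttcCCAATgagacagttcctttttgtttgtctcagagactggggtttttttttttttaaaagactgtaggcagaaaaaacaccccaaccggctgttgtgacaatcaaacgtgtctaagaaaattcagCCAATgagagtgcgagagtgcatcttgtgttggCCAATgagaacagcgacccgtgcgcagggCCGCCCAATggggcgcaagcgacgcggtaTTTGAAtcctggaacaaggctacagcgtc
CDK1: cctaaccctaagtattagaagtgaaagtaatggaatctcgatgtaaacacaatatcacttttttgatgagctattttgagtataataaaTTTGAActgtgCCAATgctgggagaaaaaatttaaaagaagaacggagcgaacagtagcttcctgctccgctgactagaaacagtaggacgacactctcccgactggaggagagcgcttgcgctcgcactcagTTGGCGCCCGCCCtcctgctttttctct
CCNB2 had 4 CCAAT matches, 1 CHR core 24 to 29 bases upstream of the start, and 1 GC box that shares bases with a CCAAT match. CDK1 had 1 match of each kind, with its E2F core 22 to 28 bases upstream of the start and directly beside the GC box. The CCNB2 summits lay 55, 71, 22 and 22 bp upstream of the start. The window of CCNB2 was chosen after its values had been seen.

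Among the kinases, CDK1, which with cyclin B drives entry into mitosis, stood at 96.9, 99.0, 99.1 and 98.1, all within 19 bp of its start. The cell types overlapped. CDK7, the kinase of the CDK-activating complex and of TFIIH, overlapped at its start as well, between 97.2 and 99.3. A site 501 and 507 bp inside the other end of CDK7 was LNCaP-specific, at 88.7 and 64.3 with no resistant summit. CDK2, the partner of cyclins E and A, stood between 99.0 and 99.9, but this summit lay 47 to 54 bp from an end of RAB5B. At the other end of CDK2, the summit stood at 88.4, 65.2, 90.8 and 67.5, so replicates differed more than the cell types did.

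CDK4 was lower near an end, at 92.6, 93.2, 91.7 and 87.5. That summit lay 86 to 99 bp from an end of the neighbouring gene TSPAN31. Within 3 kb of its own start, CDK4 went the other way, at 69.7, 71.7, 82.7 and 79.2, and was higher in both resistant libraries by 10.3 points with a pooled SD of 2.00. The summits within 1 kb of the start alone stood at 60.9, 69.9, 82.7 and 79.2.

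CDK6, the second kinase of the D-type cyclins, lies at chr7:92604921-92836573 on the minus strand. It had no summit near an end in LNCaP and stood at 81.4 and 71.3 in the resistant libraries. This difference depended on the limit, and a wider limit removed it. The resistant summits lay 2570 and 2553 bp downstream of the start, while LNCaP had summits of like rank, 79.6 and 85.0, at 3425 and 3409 bp, just past the 3 kb limit. With 5 kb in place of 3 kb, CDK6 overlapped between the cell types with a change of 2.13, and over the whole gene the change was 0.39. With 1 kb in place of 3 kb, CDK6 stayed higher, at 0 and 0 in LNCaP and 39.2 and 43.9 in the resistant libraries. Weaker resistant-specific summits lay at 1029 and 931 bp, at percentiles 26.6 and 43.9, and 1 resistant library had a summit 29 bp upstream of the start, at 39.2. LNCaP had no summit within 3 kb of the start on either side.

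Farther inside CDK6, each cell type had sites of its own. A resistant-specific site 227740 and 227715 bp downstream of the start, near the 3′ end, stood at 84.6 and 84.2. An LNCaP-specific site at 190672 and 190821 bp stood at 75.9 and 66.9. Of the other sites of CDK6, some ranked lower in the resistant libraries. One at 33949 to 33995 bp stood at 83.1, 76.7 and 33.0, with no summit in resistant replicate 2. Another at 118441 to 118562 bp stood at 77.4, 82.2, 39.2 and 36.2. Others overlapped, such as those at 26650 to 26663 bp, at 56.1, 58.6, 69.9 and 41.1, and at 69735 to 69855 bp, at 70.6, 56.2, 68.2 and 41.1. The strongest summit inside CDK6 overlapped between the cell types, at 83.1, 85.0, 84.6 and 84.2, though at different places.

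The windows upstream of CDK6, which had the largest rank difference near an end, and of MDM2, whose strongest summit changed its place, are given for comparison. They lie at chr7:92836574-92836823 on the minus strand and chr12:68807922-68808171 on the plus strand, and the window of MDM2 was chosen after its values had been seen. Capitals mark the same motifs.
CDK6: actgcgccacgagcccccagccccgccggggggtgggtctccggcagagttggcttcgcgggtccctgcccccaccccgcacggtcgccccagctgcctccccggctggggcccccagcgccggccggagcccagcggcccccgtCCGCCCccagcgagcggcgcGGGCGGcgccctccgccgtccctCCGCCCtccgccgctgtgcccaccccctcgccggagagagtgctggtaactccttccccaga
MDM2: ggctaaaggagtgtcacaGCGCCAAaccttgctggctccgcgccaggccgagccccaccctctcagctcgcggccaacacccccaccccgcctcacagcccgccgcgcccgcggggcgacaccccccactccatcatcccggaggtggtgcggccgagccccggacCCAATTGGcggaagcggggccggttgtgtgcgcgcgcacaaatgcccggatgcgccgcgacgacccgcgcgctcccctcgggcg
CDK6 had 3 GC boxes and no match to the E2F core, the CHR core or CCAAT. MDM2 had 1 E2F core 226 to 232 bases upstream of the start and 2 overlapping CCAAT matches, on opposite strands.

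MDM2 encodes the ubiquitin ligase that degrades p53, and p53 in turn activates MDM2 through a second promoter inside the gene. Its strongest summit near an end stood at 90.4, 90.5, 83.1 and 85.5, lower in both resistant libraries, a change of -6.15 points with a pooled SD of 1.19. The place of the summit differed as well. In LNCaP it lay 779 and 747 bp downstream of the annotated start, with none at the start itself. In both resistant libraries the strongest summit lay at the start, 32 and 31 bp upstream, and in resistant replicate 2 a weaker one remained at 726 bp, at 53.5. FOXM1, the transcription factor of G2 and mitosis genes, overlapped in rank, at 70.9, 72.5, 71.3 and 55.1, and its summit lay elsewhere too. It lay 541 and 584 bp outside the higher-coordinate end in LNCaP and 33 and 32 bp outside it in the resistant libraries.

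A rule for such shifts was set after these positions had been seen. Among 27 of the 41 genes whose replicates placed the strongest summit at nearly the same position, 3 had it elsewhere in the other cell type, against 12.7% of 8709 protein-coding genes. The 3 were MDM2, FOXM1 and CDC25C, with gaps of 778, 508 and 54906 bp. In CDC25C the strongest summit lay at opposite ends of the gene.

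**Figure D3:**
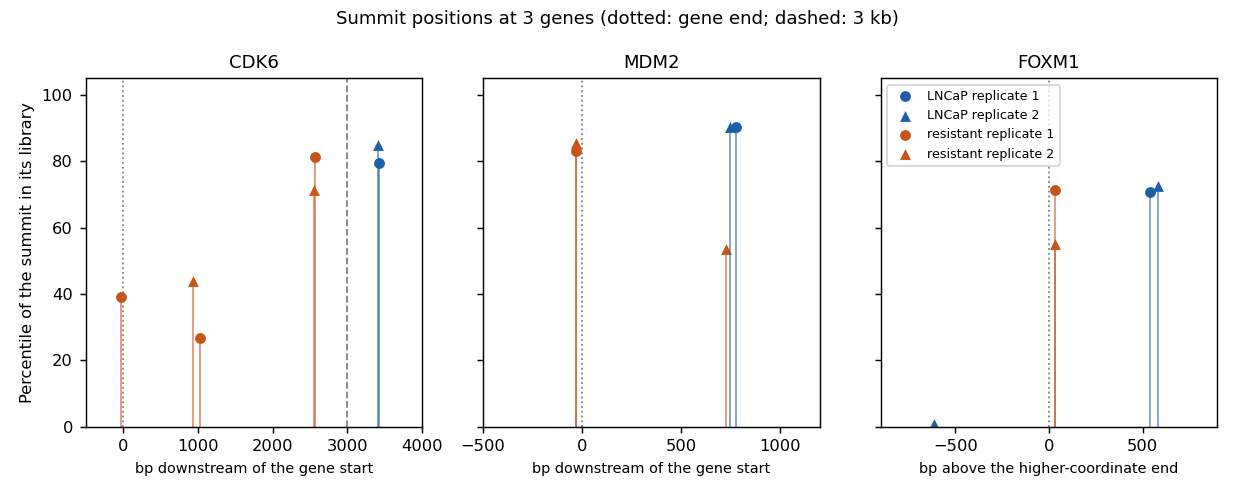
Position of each summit in bp from the annotated start of CDK6 and MDM2, or from the higher-coordinate end of FOXM1 (horizontal axes), against its percentile (vertical axis). LNCaP is blue and resistant orange, each symbol is 1 summit of 1 library. In CDK6 the LNCaP summits at 3425 and 3409 bp fall just past the 3 kb limit, and in MDM2 and FOXM1 the strongest resistant summits lie within 33 bp of the gene end.

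The CIP/KIP inhibitors, which bind cyclin-kinase complexes, overlapped near an end in all 3 cases (8086 of 16893 protein-coding genes did). CDKN1A, the p21 gene that p53 activates, stood at 73.2, 61.6, 74.2 and 71.1, with this summit 2222 to 2289 bp downstream of its annotated start. Within replicate numbers it was higher in the resistant cells by 1.09 and 9.51 points. CDKN1B, the p27 gene, stood at 73.4, 70.5, 76.1 and 68.8, with its summit 3 to 42 bp from an end of GPR19. CDKN1C, the p57 gene, stood at 85.5, 44.1, 63.5 and 54.7, with its LNCaP replicates farther apart than the cell types. With equal numbers of summits CDKN1A and CDKN1B were higher in both resistant libraries, by 45.2 and 34.8 points. At that setting 61.6% of protein-coding genes were higher, with a median change of 13.24 points over all of them.

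The INK4 inhibitors bind CDK4 and CDK6, and 2 of 4 were higher near an end (23.8% of protein-coding genes were), 1 of which, CDKN2A, overlapped at its start. CDKN2B, the p15 gene, stood at 87.5, 90.3, 94.8 and 91.8. It was higher in both resistant libraries by 4.46 points with a pooled SD of 2.07. Cutting the lists to equal length widened this to 19.5 points, while the median change over protein-coding genes went to 13.24. CDKN2A, which encodes p16 and p14ARF from separate promoters, lies at chr9:21967752-21995324 on the minus strand and stood at 58.6, 59.6, 71.2 and 74.7. The difference of 13.9 points, with a pooled SD of 1.79, lay beyond its 3′ end. There, 2081 and 2050 bp outside the gene, both resistant libraries had a summit and LNCaP had none. Near its start CDKN2A overlapped, at 58.6, 59.6, 55.8 and 62.1. A site 20098 to 20486 bp downstream of that start overlapped too, at 67.9, 58.6, 62.8 and 55.3. CDKN2C, the p18 gene, was lower at 97.7, 98.6, 97.4 and 93.6, with a summit 174 to 194 bp from an end of FAF1. CDKN2D, the p19 gene, overlapped between 91.6 and 93.9.

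Among the pocket proteins, RB1 overlapped near its start, at 74.2, 71.7, 83.6 and 68.3. The summits lay within 57 bp of the start, 8 to 86 bp from an end of the divergent transcript RB1-DT. Inside RB1, LNCaP-specific sites lay at 107796 and 107794 bp downstream of the start, at percentiles 41.1 and 38.5, and at 109446 and 109438 bp, at 44.6 and 43.4. RBL1, the p107 gene, was lower near its start, at 72.6, 74.9, 65.8 and 65.4, a change of -8.17 points with a pooled SD of 1.19. This direction turned with equal numbers of summits, to 20.9 points higher. RBL2, the p130 gene, overlapped at 93.8, 89.4, 90.6 and 79.7, with changes of -3.22 and -9.70 within replicate numbers. Inside the gene, RBL1 stood at 28.6, 33.1, 0 and 0 and RBL2 at 44.6, 38.5, 0 and 0, so the resistant libraries had no summit in either. In RBL1 the LNCaP replicates had their summit at different places, 5756 and 87905 bp from the start.

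E2F1, the activator E2F best known for driving S-phase genes, was higher in the resistant libraries near its ends. It stood at 89.1, 86.7, 96.7 and 92.2, a difference of 6.54 points with a pooled SD of 2.52. With equal numbers of summits, where 61.6% of protein-coding genes were higher, it stood at 72.02, 68.8, 94.8 and 92.2. Over the 12 alternatives, the difference ranged from 4.33 to 23.2 points. Past the 3′ end of E2F1, the strongest summit stood at 69.7, 59.97, 86.0 and 83.4, higher in both resistant libraries by 19.9 points with a pooled SD of 5.02, and lay 869 to 1151 bp from an end of NECAB3.

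The window upstream of the E2F1 start, at chr20:33686386-33686635 on the minus strand, holds the summits of LNCaP replicate 1 and of both resistant libraries, 138, 205 and 192 bp upstream of the start, while that of LNCaP replicate 2 lay at 256 bp. It is shown because E2F1 is both a member of the axis and a known target of E2Fs, with the same motifs in capitals.
E2F1: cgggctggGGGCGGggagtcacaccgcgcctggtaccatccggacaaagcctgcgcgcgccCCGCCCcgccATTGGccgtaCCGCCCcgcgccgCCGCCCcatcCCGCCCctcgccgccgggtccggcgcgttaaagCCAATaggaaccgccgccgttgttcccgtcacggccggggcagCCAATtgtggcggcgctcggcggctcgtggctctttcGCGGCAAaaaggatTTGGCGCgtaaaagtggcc
It had 2 E2F cores, 13 to 19 and 27 to 33 bases upstream of the start and on opposite strands, 3 CCAAT matches and 5 GC boxes.

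E2F3, another activator, stood at 80.1, 95.9, 95.2 and 95.2 near its start, where LNCaP replicate 1 was low and the other 3 libraries were alike. Inside the gene E2F3 stood at 69.4, 84.9, 4.67 and 0. An LNCaP-specific site 40243 and 40268 bp downstream of the start stood at 67.0 and 84.9, and a second, at 2877 and 2886 bp, at 48.5 and 45.0. E2F2 overlapped between 69.4 and 78.5, with its summit 18 to 54 bp from an end of LOC101928163.

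Of the repressor E2Fs, which include E2F4 and E2F5 as partners of the pocket proteins, 2 of 5 were lower (28.4% of protein-coding genes were). E2F5 stood at 84.6, 85.7, 75.6 and 67.5, lower in both resistant libraries, a change of -13.6 points with a pooled SD of 4.10. These values are not from a single site. The summit lay 751, 734 and 746 bp inside the lower-coordinate end in LNCaP and in resistant replicate 1. In resistant replicate 2 the only summit near an end lay 84 bp outside that end, 29 bp from an end of E2F5-DT. Inside E2F5, LNCaP had a site at 76.8 and 73.6 and the resistant libraries had none. With equal numbers of summits the difference near the end was 1.47 points in the other direction. E2F4 stood at 90.6, 85.4, 84.6 and 84.3, and its strongest summit lay at its start in replicate 1 of both cell types and past its 3′ end in replicate 2 of both. E2F6 ranged from 56.7 to 70.9, and the atypical E2F7 from 89.1 to 94.4 and E2F8 from 90.9 to 96.2, all overlapping. Inside E2F8, LNCaP had weak summits at 28.6 and 20.4 and the resistant libraries none.

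Of the mitotic and proliferation genes, 7 of 8 overlapped near an end (8086 of 16893 protein-coding genes did) and 1 was lower (28.4% were), with a median change of -0.82 points. AURKA (Aurora kinase A) ranged from 95.1 to 98.6, AURKB from 82.5 to 89.9, PLK1 (Polo-like kinase 1) from 92.2 to 96.1, CDC20 (an activator of the anaphase-promoting complex) from 95.8 to 98.3 and UBE2C (its ubiquitin-conjugating enzyme) from 97.3 to 99.1. AURKA's summit lay 33 to 37 bp from an end of CSTF1. TOP2A, the topoisomerase of dividing cells, was lower at 95.0, 98.0, 92.1 and 91.6, a change of -4.603 points with a pooled SD of 1.52.

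MKI67, whose product Ki-67 is the standard marker of dividing cells, overlapped at its start and differed inside. The start-side summit stood at 73.1, 81.2, 81.4 and 78.9 and lay 119 to 163 bp upstream of the start. Inside MKI67 the strongest summit stood at 88.0 and 91.0 in LNCaP, 23277 and 23293 bp downstream of the start, and neither resistant library had any summit there. This was the largest change inside a gene of the list, -89.5 points. Further LNCaP-specific sites of MKI67 lay at 16518 and 16549 bp, at 82.7 and 48.1, and past the 3′ end, at 59.6 and 44.9.

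The phosphatases CDC25A and CDC25C remove inhibitory phosphates from cyclin-dependent kinases. CDC25A, of G1/S, was lower at 90.9, 95.7, 88.9 and 84.9, a change of -6.42 points with a pooled SD of 3.16. CDC25C, of mitotic entry, was counted as lower at 91.9, 93.0, 89.8 and 82.3. At its start CDC25C overlapped, at 83.6, 86.3, 89.8 and 82.3. The lower call came from a site about 1.9 kb past the 3′ end, at 91.9, 93.0, 59.7 and 23.8. Inside CDC25C, a summit 99 to 161 bp from an end of LOC100128966 stood between 99.76 and 99.95 in all 4 libraries.

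Inside the genes, 18 of the 41 had a summit in at least 1 library, and 9 in all 4. Of these 18, 2 were higher (11.1%, against 7.27% of protein-coding genes) and 10 lower (55.6%, against 63.4%), with a median change of -25.4 points against -20.4. The libraries held 52, 47, 32 and 19 summits inside the genes, against 71, 74, 69 and 68 near their ends. The 10 were MKI67, E2F5, E2F3, AURKA, CCND1, RBL2, RBL1, MDM2, E2F8 and CDKN2C. AURKA stood at 58.6, 61.5, 29.4 and 0, and MDM2 at 42.1, 70.5, 36.1 and 23.8. The 2 higher genes were CCND3, at 83.8, 83.3, 91.6 and 83.9, and CDC25C. The number of inside summits followed the length of the 4 lists. With equal numbers of summits, 15 of the genes had a summit inside. Their median change was 0.46, against -5.19 over protein-coding genes. What part list length had in the result was not tested beyond this cut.

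**Figure D4:**
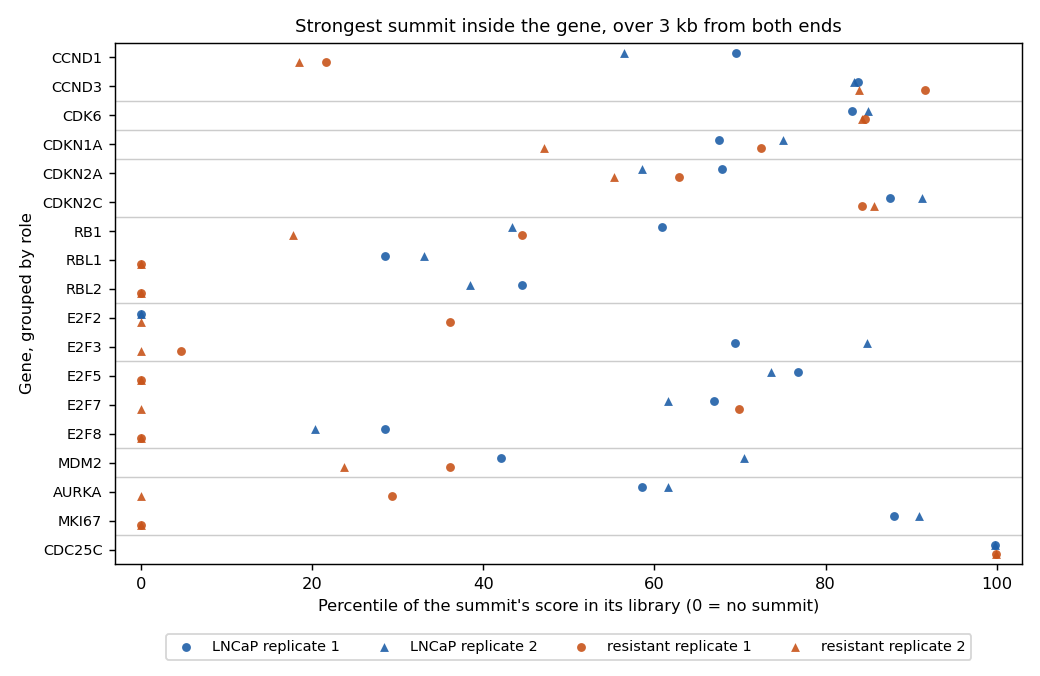
Percentile of the strongest summit inside the gene, over 3 kb from both ends (horizontal axis, 0 where there was none), for the 18 genes with one (vertical axis, by role). Each symbol is 1 library. MKI67, E2F5, RBL1, RBL2 and E2F8 stand at 0 in both resistant libraries, while in CDC25C the 4 libraries lie together near the top.

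Summits of the 4 libraries were also merged into regions and sorted by presence. Near the ends of the 41 genes lay 90 regions, of which 53 (58.9%, against 43.4% for protein-coding genes) were shared by all 4 libraries. Another 5 were LNCaP-specific (5.56%, against 13.3%) and 8 resistant-specific (8.89%, against 5.10%), and 24 were present in a mix of libraries. LNCaP-specific regions lay at CDC25C, CDK7, E2F3, FOXM1 and MKI67, 1 each. Resistant-specific regions lay at CDK6, with 2, and at CCND3, CDK4, CDKN1A, CDKN2A, FOXM1 and MDM2. Those of CDK4, at 17.6 and 16.9, and of CDKN1A, at 5.33 and 5.44, ranked low. So did the LNCaP-specific region at CDC25C, at 25.4 and 8.85. The stronger CDK6 region and the resistant-specific ones of FOXM1 and MDM2 stood beside LNCaP summits a short way off, as described above. At 1 kb on either side only 2 of each kind remained near the ends. The share over protein-coding genes was not computed at that setting. Inside the genes, 15 of 68 regions were LNCaP-specific (22.1%, against 32.6%) and 1, in CDK6, was resistant-specific (1.47%, against 3.03%).

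**Figure D5:**
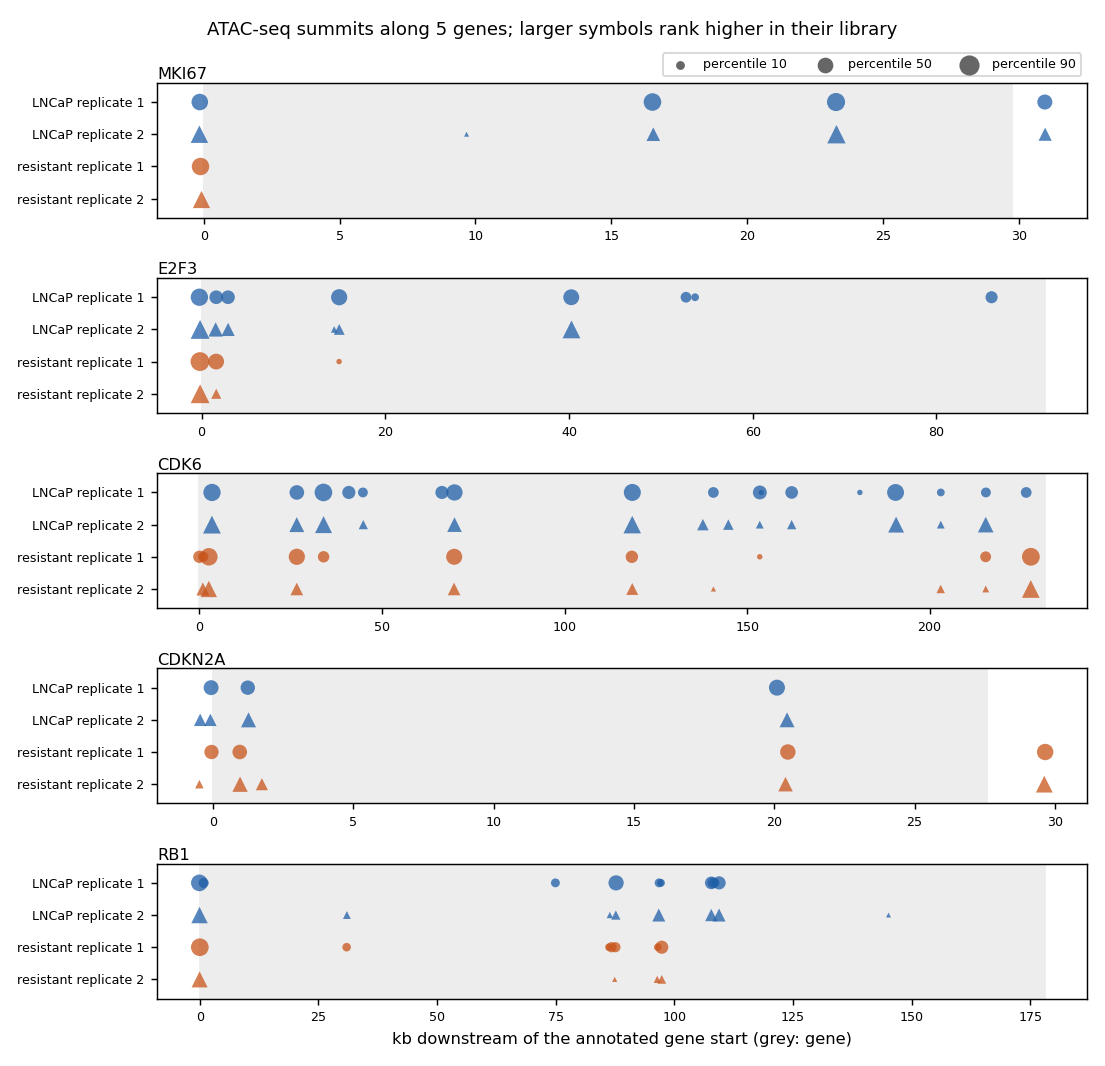
Summits along MKI67, E2F3, CDK6, CDKN2A and RB1 in kb downstream of the annotated start (horizontal axis), with 1 row for each library and the gene in grey. Larger symbols rank higher in their library. The LNCaP summits of MKI67 and E2F3 inside the gene have few or no counterparts in the resistant rows, while CDKN2A has a resistant summit past its 3′ end.

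At the start alone, which could be read for 32 of the 41 genes, 5 were higher (15.6%, against 26.4%) and 6 lower (18.8%, against 24.4%). The 5 were CCND3, CDK4, CDK6, CDKN2B and E2F1, and the 6 were CCNB2, CDKN2C, RBL1, MDM2, TOP2A and CDC25A. The 9 genes with no entry in the promoter table are E2F5, CCNE2, CDKN1C, E2F8, CCND1, FOXM1, CDK2, UBE2C and AURKA. In the upstream windows of the 32, the E2F core was found in 10 (31.2%, against 14.5% of 15842 promoters), the CHR core in 7 (21.9%, against 10.8%), CCAAT in 16 (against 34.5% of promoters) and the GC box in 25 (78.1%, against 56.0%). Their median GC content was 63.8%, against 62.4%.

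Of 43 other genes of the pathway, 42 had a summit near an end, of which 9 were higher (21.4%, against 23.8%), 6 lower (14.3%, against 28.4%) and 27 overlapped, with a median change of 0.32 points. Inside these genes, 1 of 29 was higher (3.45%, against 7.27%) and 19 lower (65.5%, against 63.4%), near the share of all genes. CCND2, which encodes the third D-type cyclin, stood at 98.2, 98.0, 86.9 and 77.3 and was lower. Near its ends CCND1 was lower at the higher-coordinate end only, while CCND3 was higher at its start and lower at its other end. ORC1, the largest subunit of the origin recognition complex, stood at 58.6 and 51.7 in LNCaP and had no summit near an end in either resistant library. The 43 genes include 8 DREAM and MMB genes, which act on CHR and E2F elements. LIN9, RBBP4 and TFDP2 were higher (37.5%, against 23.8%), by 12.1, 2.77 and 3.35 points. LIN37 was lower (12.5%, against 28.4%), with a change of -1.26 points, and 4 overlapped.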

How the data were processed

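ATAC-seq was done in 2 LNCaP and 2 enzalutamide-resistant libraries. The authors called peaks in each library and deposited 1 list of summits per library with a −log10 p-value or q-value for each. Which of these it is was not given in the sources used here, and the lowest scores lay just above 1.30, the value at 0.05. The submitters' processing notes name Bowtie2 2.2.5, SAMtools 1.6, MACS2 2.2.6 and hg38. The lists hold no reads, so neither depth nor counting error is known.

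From these lists, scores were turned into percentiles within each library with Python 3.11.15, numpy 2.4.6 and pandas 2.3.3. Gene positions were those of RefSeq (GRCh38.p14), and gene starts from its promoter table, which matched 32 of the 41 genes. For each gene, the strongest summit within 3 kb of an end and the strongest inside were compared between cell types by their values, with no test. Regions were summits with 250 bp on either side, merged over libraries. The replicate number is labelled as a batch, so changes were also taken within each number. The computation was tested on simulated lists. Alternatives were 1 kb, the gene start alone, equal numbers of summits, a score of at least 10, ranks among genes, genes with a summit in all 4 libraries, a change of at least 10 points, regions of 100 and 500 bp, presence in at least 1 library, and leaving out each library. The place of a summit counted as changed where replicates lay within 100 bp and the cell types at least 300 bp apart. Limits of 5 kb, the whole gene and regions of 1 kb were added after seeing the data.

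All genes are placed by role. Library values are given for the 10 genes with the largest change near an end among those apart, genes lacking an end summit in a library, up to 8 genes apart inside, 13 genes of the axis whatever their values (CDKN1A, CDKN1B, CDKN2A, CCND1, CCND3, CDK4, CDK6, RB1, E2F1, E2F3, MDM2, MKI67 and FOXM1), and up to 6 regions specific to each cell type. Other values given were chosen after they had been seen. The genes and lists were chosen with earlier results of these data known.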

Additional observations from a re-analysis of the deposited data

How the results depend on the processing

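Counts near an end moved with several settings. With the share of protein-coding genes in parentheses, higher genes numbered 7 with 1 kb in place of 3 kb (27.0%), 22 with equal numbers of summits (61.6%) and 2 with a change of at least 10 points (13.6%), and lower genes 6 at the gene start alone (24.4%), 1 with equal numbers (8.71%) and 2 with at least 10 points (16.5%). Without LNCaP replicate 1, LNCaP replicate 2, resistant replicate 1 and resistant replicate 2 in turn, 11, 9, 7 and 11 genes were higher (36.2%, 31.0%, 28.7% and 44.7%) and 19, 20, 22 and 15 lower (37.8%, 42.6%, 48.8% and 31.9%), where fewer libraries had to separate. Taken within each replicate number, as a replicate block, 5 genes were higher (30.0% of protein-coding genes) and 16 lower (34.9%). The median change near an end was 0.4249 at 1 kb and 0.3906 at the start, against 0.2747 and 0.04657 for protein-coding genes. With equal numbers it was 4.996, against 13.24 for protein-coding genes, and that inside was 0.4625. The inside median was -6.854 with a score of at least 10 and -4.414 in genes with a summit in all 4 libraries.

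Counts of regions moved too. Their shares over protein-coding genes were computed for the main setting only, so these shifts cannot be set against those of other genes. End regions of LNCaP numbered 2 with equal numbers, 2 with a score of at least 10, 3 at 500 bp, 17 by at least 1 library, 2 at 1 kb on either side, and 6 to 12 without 1 library. Resistant end regions numbered 5 with a score of at least 10, 4 at 500 bp and 2 at 1 kb. Inside, shared regions numbered 7 with equal numbers, 6 with a score of at least 10 and 24 by at least 1 library. LNCaP-specific inside regions numbered 6, 9 and 35 in the same order, and 16 to 27 without 1 library. Resistant inside regions numbered 3 with equal numbers, 2 at 100 bp, 9 by at least 1 library, 0 at 1 kb, and 1 to 8 without 1 library.

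Directions turned in these genes. CCND3 changed by 21.2 at 1 kb and at the start, 14.02 with equal numbers and 4.202 over the whole gene. CDK4 changed by 15.53 at 1 kb, 10.28 at the start and 4.789 with equal numbers. CDC25C changed by 1.149 at 1 kb and at the start, 1.935 with equal numbers and 0.155 over the whole gene. CDKN2A changed by -0.1021 at the start. With equal numbers RBL1 changed by 20.86, E2F4 by 9.388, E2F5 by 1.465, MDM2 by 3.106 and CDC25A by 0.5447. The cause was not tested beyond what the places of the summits and the shorter lists show. With no reads, depth sets no limit that can be stated.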
